A study of Mus musculus with 12 samples.

Results

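The 404 genes described here are those whose exonic RNA was lower in mouse embryonic stem cells without Dicer1 and in mouse embryonic stem cells without Dgcr8, each set against its own wild-type line. They were chosen by the deposited group means: the exonic ratio, (knockout + 1)/(wild type + 1), had to be at most 0.5 in both comparisons, with a wild-type mean of at least 50 normalised reads in both. Of 18412 genes in the tables, 10440 had that wild-type mean, 914 of these passed the ratio in the Dicer comparison and 1051 in the Dgcr8 comparison. The 407 genes that passed in both were 44.5% of the first and 38.7% of the second. Lin28a, Sfmbt2 and Pim2 were left out by the rule, which leaves 3.87% of the eligible genes. Because exonic reads chose the members, and intronic reads come from the same libraries, all knockout to wild-type values of members are given as descriptions with no test.

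The study sequenced polyadenylated RNA, with strand kept, from 12 libraries in 4 groups of 3: Dicer1-/- cells and the TFC line as their wild type, and Dgcr8-/- cells and the V6.5 line as theirs. All were stable lines grown on gelatin in serum with leukaemia inhibitory factor, with no other treatment named. The 2 comparisons have no group in common. Each knockout is known here as 1 line, so loss of the factor and any further difference between the lines of a pair cannot be told apart. In bulk RNA, fewer cells of a type and less RNA per cell cannot be told apart either.

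Dicer1 cuts hairpin precursors into mature microRNAs, and Dgcr8 guides the nuclear enzyme Drosha to the primary transcripts from which those hairpins are released. MicroRNAs load onto Argonaute proteins and mostly lower the messages they pair with, so a message that is lower without them is commonly thought of as an indirect target. Reads in introns come largely from RNA that is not yet spliced and are often read beside exonic reads, since the former follow transcription more closely and the latter also follow the stability of the message. Embryonic stem cells in serum and leukaemia inhibitory factor hold a mixture of states, from naive cells to cells that begin to express genes of the epiblast and the primitive streak.

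The targeted genes followed their labels in the sense that Dicer1 exonic reads were 1334 to 1763 in Dicer1-/- and 2944 to 3496 in TFC, and Dgcr8 reads were 342 to 1114 in Dgcr8-/- and 1930 to 2947 in V6.5. The pluripotency markers Pou5f1, Nanog and Esrrb had at least 2214 reads in each library, while the lowest value of Klf4 was 438, in V6.5. The libraries of each group are called A, B and C here, where A is the one whose exonic reads correlated least with the others. Intronic libraries took the letters under which their deviations from the group mean best followed those in exons, with r of only 0.09 to 0.43, so the letters need not name the same library in exons and introns. No label says whether replicate libraries are of separate cultures, so every p here speaks of library spread alone, and that spread could be technical. Reads solved per library summed to between 5784197 and 30176230 over exons, and over introns to between 559057 and 5579938, with V6.5 library A lowest in both. Markers of mesoderm and streak, a list that holds the members Bmp4 and Mixl1, summed to 1437, 4219 and 4610 reads in V6.5 (A, B, C) and to 221 to 225 in Dgcr8-/-, where T had a mean of 0 against 1443. Mesp1 was at 0 in both groups. Sox2 in V6.5 was 14128, 2615 and 6819 reads in the same order, Klf4 2844, 438 and 966, and Esrrb 9402, 2498 and 2214. In Dgcr8-/- Sox2 was 14986 to 18502, Klf4 2199 to 2448 and Esrrb 7476 to 11537. Zfp42 had 9395, 5563 and 6017 in V6.5 and 5575 to 7015 in Dgcr8-/-. In the Dicer comparison the streak sum was 363 to 506 in TFC and 572 to 602 in Dicer1-/-, but Kdr alone went from 13.4 to 414 reads and 4 of 7 tested markers were lower (median log2 fold change -1.08). Fibroblast markers, a list that holds the members Col1a1, Acta2 and S100a4, were summed over 14 genes without Fn1. They came to 7871 to 15978 in V6.5 and 6642 to 12517 in Dgcr8-/-. That sum is mostly Vim in the knockout (7677 reads against 2723), and 9 of 12 tested markers were lower, with a median of -3.22. In TFC and Dicer1-/- the fibroblast sums were 3314 to 6031 and 6281 to 9144, again with Vim (4080 and 7173) as the main part, while 10 of 12 tested markers were lower, with a median of -1.36. Fn1, left out of these sums, had higher means than Vim, at 18116 in TFC and 17885 in Dicer1-/-. In V6.5 and Dgcr8-/- the Fn1 means were 21262 and 12645. Trophectoderm markers summed to 11478 to 15550 in V6.5 and 2769 to 4095 in Dgcr8-/-, where 10 of 13 were lower, and to 2716 to 7108 in TFC and 6090 to 7976 in Dicer1-/-, where 1 of 10 was lower. Primitive endoderm markers summed to 8685 to 11326 in TFC and 20391 to 31905 in Dicer1-/-, with Sparc at 4281 and 20894, while 7 of 12 tested were lower with a median of -0.13. In V6.5 they summed to 15499 to 25256 and in Dgcr8-/- to 13918 to 14492, and 8 of 11 were lower. The part of such cells in the members' values was not tested.

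Across the members the median exonic ratio was 0.314 in the Dicer comparison and 0.304 in the Dgcr8 comparison, where all eligible genes had medians of 0.952 and 0.967. Both ratios were at most 0.1 for 19 members and at most 0.25 for 89, and for 54 members both lay above 0.4. The depth of the lowering differed between the knockouts for many members: 228 had ratios within 1.5 times of each other, while in 31 the Dgcr8 ratio was over 4 times smaller and in 12 the Dicer ratio was. Gap43, a growth cone protein of neurons, had ratios of 0.0195 and 0.0829 and lay on the side of Dicer, as did Vrtn at 0.0109 and 0.181. Car4, a membrane carbonic anhydrase, with 0.307 and 0.0265 and Greb1, known as an oestrogen-induced gene, with 0.296 and 0.0445 lay on the side of Dgcr8.

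**Figure D1:**
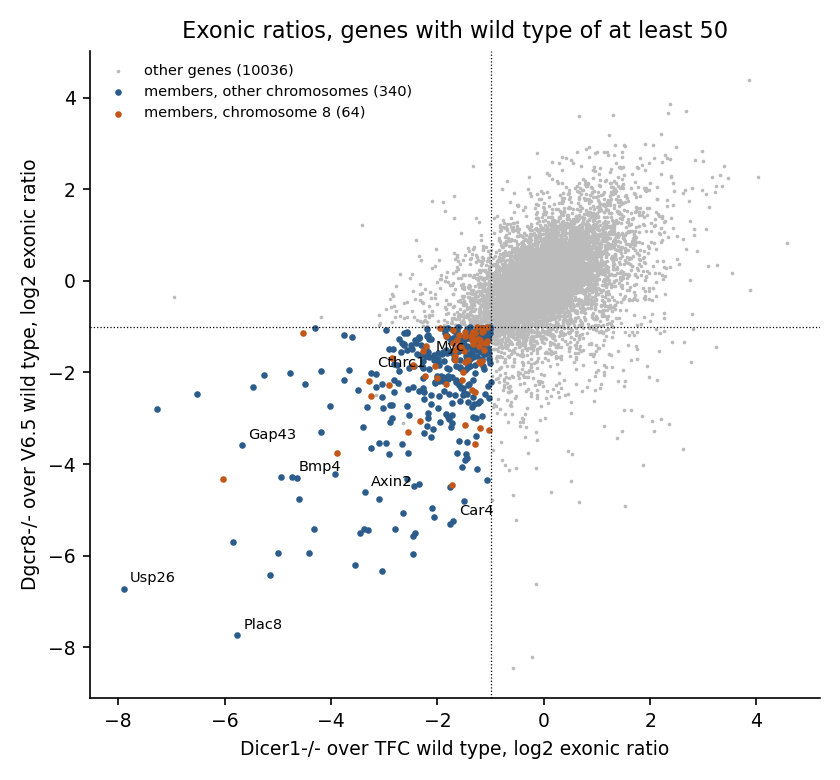
Log2 exonic ratio of each eligible gene, Dicer1-/- over TFC on the horizontal axis and Dgcr8-/- over V6.5 on the vertical axis. Grey points are the 10036 other genes, blue points the 340 members on other chromosomes and members without a position, and orange points the 64 members on chromosome 8. The members fill the lower left corner by construction, with Usp26 and Plac8 farthest out.

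Most members did not pass a test over all genes with 3 libraries a group. With limma at an adjusted p under 0.05, 11 of 403 tested members were called lower in Dicer exons, where 0.228% of all tested genes were, and 26 of 404 in Dgcr8 exons, where 0.56% were. In introns the counts were 2 of 293 beside 0.0774% of all genes in the Dicer comparison, and 10 of 282 beside 0.409% in the Dgcr8 comparison. All 3 knockout libraries lay below all 3 wild-type libraries for 223 members in Dicer exons and 264 in Dgcr8 exons, beside 9.63% and 11.9% of all tested genes. In introns this held for 82 and 115 members beside 7.99% and 10.1%. It held in both exon tables for 182 members beside 3.46%. It held in all 4 tables for 28 members beside 0.502%. Since the rule used these contrasts, nothing is read from these counts. The limma calls depended on single libraries: over all genes 30 were called lower in Dicer exons and 71 in Dgcr8 exons, and 0 without Dicer1-/- B, Dicer1-/- C or TFC C, and 0 without Dgcr8-/- B, Dgcr8-/- C, V6.5 B or V6.5 C, where 434 to 534 and 553 to 777 had an unadjusted p under 0.05. With a term for library set, A against B and C, 645 and 1099 genes were called lower. No label gives such a set, and A was picked from these same values, so nothing is read from those counts. The 28 were Usp26, Slc15a2, Tspan7, Serpine2, Mob3b, Fkbp11, Slc4a5, Pstpip2, Cacna1b, Cthrc1, Tnik, Igsf10, Spred3, Wnt8a, Car4, Cers4, Gcsh, Agpat5, Smarca1, Klf12, Rragb, Aif1l, Slc1a3, Stk26, Pabpc4, Shmt1, Lsm1 and Cfap20.

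Which genes are members depended on single libraries. When each of the 12 exonic libraries was left out in turn, the rule gave 373 to 521 genes, and 154 of the 404 were among them every time. With the median of the 3 libraries in place of the mean, 392 genes passed and 269 of them were members. Without library A of every group, an alternative chosen after the data were seen, 454 genes passed and 303 of them were members. Of the 19 members with both ratios at most 0.1, Rgs5, Klk8, Slfn5, Btla, Maf, Gpm6a and Pcdh7 were not among the 154. The rest were: Usp26, Plac8, Slc39a8, Magel2, Slc15a2, Rgs17, Bmp4, Psd4, Gap43, Matn3, Dclk1 and Axin2. The median coefficient of variation of a member over the 3 libraries was 62.6% in Dicer1-/-, 53.1% in TFC, 60.6% in Dgcr8-/- and 47.4% in V6.5, where all eligible genes had 27.0%, 35.9%, 36.1% and 33.4%. These sets were not matched for level, and members have fewer reads. Library A had the highest value of 3 for 194 members in Dicer1-/- and for 220 in Dgcr8-/-, 48.0% and 54.5%, beside 40.9% and 45.1% of all eligible genes.

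Near the threshold the values ran on without a gap. Glipr2, with Dicer means of 577 and 1155 reads and Dgcr8 means of 639 and 2938, was just inside at 0.4998 and 0.2177. Faap24 with 0.4996 and 0.4965, Cplx2 with 0.3288 and 0.4985, Cfap20 with 0.4759 and 0.4983 and Timm9 with 0.3831 and 0.4975 were the next. Just outside were Gins3 with 0.3359 and 0.5005, Anxa8 with 0.501 and 0.4184, Aspg with 0.2467 and 0.5014, Rccd1 with 0.4465 and 0.5015 and Fgf17 with 0.281 and 0.5017.

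Promoters of the members differed from those of other expressed genes in CpG content, which the rule did not use. RefSeq windows of build GRCm38.p6, from 250 bases before to 50 after the start, were found for 309 members by symbol. An observed to expected CpG ratio of at least 0.6 was reached by 60.2% of these windows, by 79.4% of the windows of 8057 other eligible genes and by 36.5% of all 27025 windows. The members also had lower levels, and among 1613 other eligible genes at or below the members' median reads per kb the share was 70.6%. The GC content was alike, with medians of 61.3%, 61.7% and 62.3% for members, other eligible genes and the low-level genes. The 100 bases before the start of 6 members are given 5′ to 3′ in lower case with each CG in capitals, because they span the range from none to many. Usp26 (chrX:51801234-51801333, minus strand), S100a4 (chr3:90603670-90603769, plus strand) and Dclk1 (chr3:55242264-55242363, plus strand) are CpG-poor, and Axin2 (chr11:108920249-108920348, plus strand), Fgf5 (chr5:98254084-98254183, plus strand) and Slc39a8 (chr3:135825179-135825278, plus strand) are CpG-rich.
Usp26: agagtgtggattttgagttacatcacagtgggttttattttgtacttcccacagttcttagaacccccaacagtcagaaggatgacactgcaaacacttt
S100a4: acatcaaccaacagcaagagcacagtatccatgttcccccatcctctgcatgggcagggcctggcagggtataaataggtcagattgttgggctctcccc
Dclk1: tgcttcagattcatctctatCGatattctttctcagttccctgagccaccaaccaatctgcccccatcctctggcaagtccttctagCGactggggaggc
Axin2: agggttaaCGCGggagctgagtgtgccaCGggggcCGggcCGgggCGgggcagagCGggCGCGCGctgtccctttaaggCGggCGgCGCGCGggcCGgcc
Fgf5: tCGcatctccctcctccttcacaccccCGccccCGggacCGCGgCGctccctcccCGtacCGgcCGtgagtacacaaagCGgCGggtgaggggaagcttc
Slc39a8: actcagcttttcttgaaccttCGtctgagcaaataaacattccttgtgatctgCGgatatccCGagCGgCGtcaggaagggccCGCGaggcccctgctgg
The bases shown held 0 CG in Usp26 and S100a4, 2 in Dclk1, 16 in Axin2, 11 in Fgf5 and 7 in Slc39a8. Slc39a8 and Usp26 were both among the lowest members, so a low ratio occurred with either kind of promoter.

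A set of 12 motifs was searched on both strands of the windows. The Myc-type E-box CACGTG was in 7.8% of member windows, 11.1% of other eligible windows and 7.2% of all windows. The Zeb-type box CAGGTG was in 20.1% of member windows, 16.8% of other eligible windows and 5413 of the 27025 windows in all. The TATA box, TATAAA, was in 8.7%, 6.0% and 14.2%, the CCAAT box in 38.8%, 39.7% and 37.9%, and the GC box GGGCGG in 67.3%, 68.7% and 35.9%. The octamer ATGCAAAT was in 1.3%, 1.4% and 1.8%, and the oestrogen-related receptor type TCAAGGTCA in 0.3%, 0.2% and 0.4%. The Stat type TTCNNNGAA was in 6.1%, 6.7% and 8.5%, and the cyclic AMP element TGACGTCA in 1.9%, 3.8% and 1.9%. The Zfx type AGGCCT was in 9.7%, 10.9% and 10.3%, the Tcf and Lef type CTTTGAT in 2.9%, 2.3% and 3.7%, and the E2f type TTTCGCGC in 0.0%, 0.7% and 0.3%. Among the 1613 low-level genes the shares, in the order of this paragraph, were 9.9%, 21.8%, 5.5%, 38.3%, 67.6%, 1.5%, 0.4%, 6.8%, 3.2%, 12.1%, 1.8% and 0.2%. These shares are descriptions, and no motif is taken as a site. The E-box is shown for Rragb (chrX:153139821-153139937, plus strand), a GTPase of the amino acid pathway to mTORC1 and 1 of the 28 members apart in all tables, and for Bmp4 (chr14:46390842-46390867, minus strand), with the match in capitals.
Rragb: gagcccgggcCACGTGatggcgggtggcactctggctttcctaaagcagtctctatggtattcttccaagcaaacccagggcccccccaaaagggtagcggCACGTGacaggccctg
Bmp4: gtacctcttgCACGTGgtccccaggt
Rragb had 2 matches and Bmp4 1 in the bases shown.

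Library values below are normalised reads in the order A, B and C, positions are those of the annotation of GRCm38 counted from 1, and a pair of ratios gives Dicer before Dgcr8. The 12 members with the lowest larger ratio were led by Usp26, an X-linked ubiquitin protease best known from the testis (chrX:51753959-51801233, minus strand). Usp26 exonic reads were 588, 380.2 and 966 in TFC, against 5.11, 0 and 0 in Dicer1-/-. Usp26 in V6.5 had 147, 385 and 765, and in Dgcr8-/- 0, 9.32 and 0. Usp26 groups did not overlap in either comparison (ratios 0.00419 and 0.00948). Usp26 intronic reads were 39.6, 82.3 and 90.8 in TFC against 0, 0 and 0 in Dicer1-/-, and 23.7, 20.1 and 42.4 in V6.5 against 0, 0 and 0 in Dgcr8-/-. Usp26 intronic ratios were 0.0139 and 0.0336. Plac8, a small cysteine-rich protein first found in placenta (chr5:100553725-100572245, minus strand), came next. Plac8 exonic reads were 128, 178 and 201 in TFC, against 6.39, 0 and 0 in Dicer1-/-. Plac8 stood at 203, 256 and 182 in V6.5, and at 0, 0 and 0 in Dgcr8-/-. Plac8 was lower in each knockout library than in any library of its wild type (ratios 0.0184 and 0.00466). Plac8 intronic reads were 18.8, 0 and 47.5 in TFC against 0, 0 and 0 in Dicer1-/-, and 0, 63.4 and 27.4 in V6.5 against 0, 3.44 and 0 in Dgcr8-/-. Plac8 intronic ratios were 0.0433 and 0.0686. Slc39a8 imports zinc and manganese (chr3:135825279-135888572, plus strand). Slc39a8 exonic reads were 569.7, 765 and 899 in TFC, against 1.28, 34.1 and 66.4 in Dicer1-/-. Slc39a8 reached 76.2, 628 and 650.3 in V6.5, with 0, 0 and 19.2 in Dgcr8-/-. Slc39a8 groups did not overlap in either comparison (ratios 0.0468 and 0.0163). Slc39a8 intronic reads were 121, 325 and 222 in TFC against 0, 0 and 45.2 in Dicer1-/-, and 0, 23.2 and 67.4 in V6.5 against 0, 0 and 0 in Dgcr8-/-. Slc39a8 intronic ratios were 0.0718 and 0.0321. Slc15a2 carries small peptides into cells (chr16:36750177-36784962, minus strand). Slc15a2 exonic reads were 788, 306 and 147 in TFC, against 28.1, 0 and 18.6 in Dicer1-/-. Slc15a2 in V6.5 had 127, 189.6 and 207, and in Dgcr8-/- 6.68, 17.1 and 0. Slc15a2 was lower in each knockout library than in any library of its wild type (ratios 0.0399 and 0.0508). Slc15a2 intronic reads were 703, 181 and 319 in TFC against 23.9, 46.2 and 33.9 in Dicer1-/-, and 127, 143 and 89.8 in V6.5 against 0, 1.15 and 1.16 in Dgcr8-/-. Slc15a2 intronic ratios were 0.0887 and 0.0146.

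Rgs5 and Rgs17 speed the return of G proteins to their inactive state. Rgs5 lies at chr1:169655501-169695813, plus strand. Rgs5 exonic reads were 0, 0 and 169.7 in TFC, against 0, 0 and 0 in Dicer1-/-. Rgs5 stood at 5.08, 109 and 38.2 in V6.5, and at 0, 0 and 0 in Dgcr8-/-. Rgs5 groups overlapped in the Dicer comparison and were apart in the Dgcr8 comparison (ratios 0.0174 and 0.0193). Rgs5 was listed at 0 intronic reads in every library. Rgs17 lies at chr10:5825663-5922400, minus strand. Rgs17 exonic reads were 79.2, 87.5 and 80.5 in TFC, against 5.11, 0 and 0 in Dicer1-/-. Rgs17 reached 35.5, 381 and 386 in V6.5, with 0, 10.9 and 27.2 in Dgcr8-/-. Rgs17 was lower in each knockout library than in any library of its wild type (ratios 0.0324 and 0.05098). Rgs17 intronic reads were 3.05, 0 and 0 in TFC against 0, 0 and 0 in Dicer1-/-, and 5.92, 3.09 and 49.9 in V6.5 against 0, 0 and 0 in Dgcr8-/-. Rgs17 was thus under the intronic minimum in TFC and V6.5. Klk8 is a secreted serine protease of the kallikrein family (chr7:43797577-43803826, plus strand). Klk8 exonic reads were 152, 32.5 and 10.1 in TFC, against 2.56, 0 and 0 in Dicer1-/-. Klk8 in V6.5 had 175, 187 and 107, and in Dgcr8-/- 2.503, 0 and 0. Klk8 groups did not overlap in either comparison (ratios 0.0281 and 0.0117). Klk8 intronic reads were 34.5, 0 and 74.1 in TFC against 1.26, 0 and 0 in Dicer1-/-, and 14.8, 27.9 and 28.7 in V6.5 against 0, 0 and 0 in Dgcr8-/-. Klk8 intronic ratios were 0.0382 and 0.0403. Btla is an inhibitory receptor of lymphocytes (chr16:45224315-45257670, plus strand). Btla exonic reads were 0, 225 and 0 in TFC, against 6.39, 0 and 0 in Dicer1-/-. Btla stood at 10.2, 149 and 175 in V6.5, and at 0, 9.32 and 0 in Dgcr8-/-. Btla groups overlapped in the Dicer comparison and were apart in the Dgcr8 comparison (ratios 0.0412 and 0.0365). Btla intronic reads were 0, 0 and 8.38 in TFC against 0, 32.4 and 0 in Dicer1-/-, and 0, 43.3 and 32.4 in V6.5 against 15.4, 0 and 0 in Dgcr8-/-. Btla was thus under the intronic minimum in TFC. Btla in TFC thus rested on library B alone.

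Maf, a basic leucine zipper transcription factor, lies on chromosome 8 (chr8:115682942-115707794, minus strand). Maf exonic reads were 24.6, 0 and 169.7 in TFC, against 0, 0 and 0 in Dicer1-/-. Maf reached 30.5, 158 and 214 in V6.5, with 0, 17.1 and 0 in Dgcr8-/-. Maf groups overlapped in the Dicer comparison and were apart in the Dgcr8 comparison (ratios 0.0152 and 0.0496). Maf had a listed intron length of 0, so its 0 intronic reads in every library are no measurement. Magel2 is an imprinted gene expressed from the paternal copy (chr7:62377010-62381640, plus strand). Magel2 exonic reads were 116, 77.5 and 92.05 in TFC, against 11.5, 0 and 0 in Dicer1-/-. Magel2 in V6.5 had 81.2, 48.99 and 137, and in Dgcr8-/- 3.34, 0 and 0. Magel2 was lower in each knockout library than in any library of its wild type (ratios 0.0503 and 0.0234). Magel2 too had a listed intron length of 0, with 0 intronic reads in every library. Slfn5 and Slfn9 are neighbours of the Schlafen family, whose members are linked to growth arrest and to defence against viruses. Slfn5 lies at chr11:82951349-82964840, plus strand. Slfn5 exonic reads were 24.6, 62.5 and 535 in TFC, against 16.6, 0 and 0 in Dicer1-/-. Slfn5 stood at 10.2, 72.6 and 98.8 in V6.5, and at 0, 0 and 0 in Dgcr8-/-. Slfn5 groups did not overlap in either comparison (ratios 0.0314 and 0.0163). Slfn5 was listed at 0 intronic reads in every library. Slfn9 lies at chr11:82978390-82991830, minus strand. Slfn9 exonic reads were 1223, 778 and 716 in TFC, against 122, 61.3 and 87.6 in Dicer1-/-. Slfn9 reached 269, 147 and 341 in V6.5, with 0, 0 and 14.4 in Dgcr8-/-. Slfn9 was lower in each knockout library than in any library of its wild type (ratios 0.101 and 0.0229). Slfn9 intronic reads were 86.9, 0 and 36.3 in TFC against 31.5, 0 and 0 in Dicer1-/-, and 26.6, 20.9 and 21.2 in V6.5 against 0, 0 and 0 in Dgcr8-/-. Slfn9 intronic ratios were 0.273 and 0.0418. Reads of Schlafen genes may be split among near-identical copies, so both are uncertain, as are Acot1 and Acot2, the actins Acta2 and Actc1, and the class I antigen H2-K1.

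**Figure D2:**
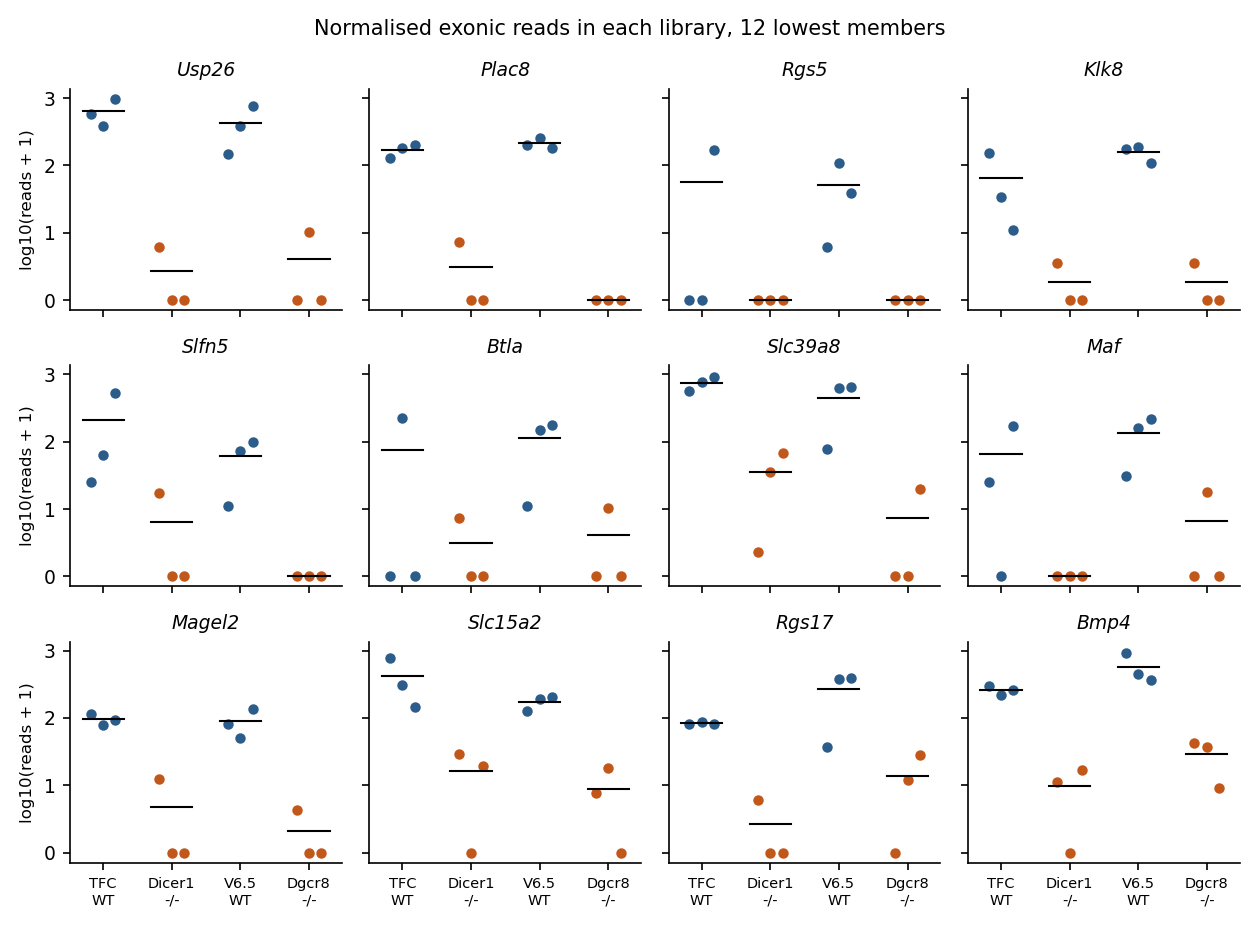
Normalised exonic reads, as log10(reads + 1), of the 12 lowest members in each of 12 libraries: blue points are wild-type libraries A, B and C from left to right, orange points knockout libraries, and black bars the group means. In Usp26, Plac8, Klk8, Slfn5, Slc39a8, Magel2, Slc15a2, Rgs17 and Bmp4 every wild-type library lies above every library of its knockout. Rgs5, Btla and Maf are at 0 in at least 1 TFC library.

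For orientation, 223 members were placed in 14 groups by textbook role, with the member list known, so the groups carry no test. Secreted signals and their binding proteins were 9 members, with median ratios of 0.24 in the Dicer and 0.0511 in the Dgcr8 comparison. They were Bmp4, Tgfb1, Wnt8a, Fgf5, Fgf10, Slit2, Igfbp4, Igfbp5 and Fgfbp3. Bmp4 is a ligand of the Smad pathway that, with leukaemia inhibitory factor, holds back neural differentiation of embryonic stem cells (chr14:46383520-46390669, minus strand). Bmp4 exonic reads were 295, 215 and 259 in TFC, against 10.2, 0 and 15.9 in Dicer1-/-. Bmp4 in V6.5 had 924, 447 and 363, and in Dgcr8-/- 42.1, 35.7 and 7.995. Bmp4 groups did not overlap in either comparison (ratios 0.0378 and 0.0511). Bmp4 intronic reads were 15.2, 0 and 27.9 in TFC against 0, 0 and 0 in Dicer1-/-, and 53.3, 36.4 and 69.8 in V6.5 against 0, 12.6 and 0 in Dgcr8-/-. Bmp4 was thus under the intronic minimum in TFC. Tgfb1, the founding ligand of that superfamily, had ratios of 0.139 and 0.152. Fgf5 marks the epiblast after implantation (chr5:98254184-98277030, plus strand). Fgf5 exonic reads were 108, 85.04 and 23.01 in TFC, against 24.3, 0 and 23.9 in Dicer1-/-. Fgf5 stood at 40.6, 274 and 665 in V6.5, and at 8.35, 17.1 and 3.198 in Dgcr8-/-. Fgf5 groups overlapped in the Dicer comparison and were apart in the Dgcr8 comparison (ratios 0.234 and 0.0322). Fgf5 intronic reads were 6.096, 0 and 0 in TFC against 0, 0 and 0 in Dicer1-/-, and 5.92, 77.4 and 19.96 in V6.5 against 0, 0 and 0 in Dgcr8-/-. Fgf5 was thus under the intronic minimum in TFC. Wnt8a is a Wnt ligand of the early streak (chr18:34542313-34548273, plus strand). Wnt8a exonic reads were 41.7, 30.01 and 106 in TFC, against 26.2, 22.7 and 1.33 in Dicer1-/-. Wnt8a reached 33.01, 221 and 170.5 in V6.5, with 0, 7.77 and 0 in Dgcr8-/-. Wnt8a groups did not overlap in either comparison (ratios 0.294 and 0.0252). Wnt8a intronic reads were 22.4, 26.7 and 92.2 in TFC against 21.4, 0 and 1.41 in Dicer1-/-, and 29.6, 309 and 176 in V6.5 against 20.5, 4.59 and 0 in Dgcr8-/-. Wnt8a intronic ratios were 0.179 and 0.0542. Fgf5 and Wnt8a were low in V6.5 library A and higher in B and C, as the streak marker sum was, while Bmp4 was highest in library A. The part of differentiating cells in these values was not tested.

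Receptors were 12 members: Flt1, Gfra1, Nrp1, Notch3, Cd44, Cd34, Cnr1, Chrm4, Gabra3, Gpr75, Flrt3 and Ptprd. Their median ratios were 0.179 and 0.218, and 3 of them were among the members kept whichever exonic library was left out. Flt1, a receptor of vascular endothelial growth factor, had ratios of 0.169 and 0.0502 in exons and 0.247 and 0.02101 in introns. Gfra1, the receptor of glial cell line-derived neurotrophic factor, had 0.0261 and 0.239 in exons. Cd44, the hyaluronan receptor and a known target of Wnt signalling, had 0.117 and 0.0367.

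Regulators of signalling inside the cell were the largest group with 30 members, and their median ratios were 0.271 and 0.201. They were Axin2, Tnik, Rgs3, Rgs5, Rgs17, Rgs19, Dusp4, Dusp10, Dusp19, Spred3, Arrb1, Stk26, Prkd1, Rasd2, Rasa3, Camkk1, Ubash3b, Sgk2, Wnk2, Traf4, Neurl1a, Pld1, Pde2a, Pde5a, Eras, Arhgap10, Arhgef25, Arhgef28, Cav1 and Psd4. Axin2, a scaffold of the complex that destroys beta-catenin and itself a common target of Wnt signalling (chr11:108920349-108950783, plus strand), is shown in full although it was picked after its values were seen. Axin2 exonic reads were 287, 208 and 188 in TFC, against 29.4, 34.1 and 0 in Dicer1-/-. Axin2 in V6.5 had 485, 1317 and 1007, and in Dgcr8-/- 67.6, 29.5 and 14.4. Axin2 was lower in each knockout library than in any library of its wild type (ratios 0.0969 and 0.0407). Axin2 intronic reads were 37.1, 0 and 34.9 in TFC against 16.4, 0 and 0 in Dicer1-/-, and 56.3, 166 and 125 in V6.5 against 8.54, 0 and 0 in Dgcr8-/-. Axin2 intronic ratios were 0.258 and 0.033. Tnik, a kinase that binds Tcf factors, had exonic ratios of 0.2597 and 0.119. Dusp4 removes phosphate from Erk and lies on chromosome 8 (chr8:34807297-34819894, plus strand). Dusp4 exonic reads were 943, 440.2 and 463 in TFC, against 308, 90.9 and 154 in Dicer1-/-. Dusp4 stood at 1011, 2614 and 2590 in V6.5, and at 153, 37.3 and 87.9 in Dgcr8-/-. Dusp4 groups did not overlap in either comparison (ratios 0.301 and 0.0452). Dusp4 intronic reads were 4.06, 0 and 0 in TFC against 6.29, 0 and 0 in Dicer1-/-, and 5.92, 37.1 and 79.8 in V6.5 against 0, 0 and 2.32 in Dgcr8-/-. Dusp4 was thus under the intronic minimum in TFC. Spred3, an inhibitor of Ras signalling, had ratios of 0.291 and 0.1803 in exons and 0.373 and 0.227 in introns. Eras, the Ras protein of embryonic stem cells, had 0.168 and 0.457.

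Transcription factors and chromatin proteins were 17 members: Myc, Lef1, Maf, Klf12, Mixl1, Hey1, Zfpm1, Zfpm2, Foxn4, Foxr2, Ets1, Bcl6b, Lmo4, Smarca1, Zfp521, Mdfi and Rfxank. Median ratios were 0.349 and 0.277, and 7 of the 8 over the intronic minimum had intronic ratios of at most 0.5 in both comparisons. Myc drives growth and self-renewal in these cells (chr15:61985391-61990374, plus strand). Myc exonic reads were 442, 768 and 1070 in TFC, against 208, 145 and 157 in Dicer1-/-. Myc reached 1287, 484 and 704 in V6.5, with 367, 180.2 and 232 in Dgcr8-/-. Myc was lower in each knockout library than in any library of its wild type (ratios 0.225 and 0.316). Myc intronic reads were 15.8, 44.5 and 25.1 in TFC against 13.2, 0 and 0 in Dicer1-/-, and 11.8, 38.7 and 17.5 in V6.5 against 23.9, 0 and 0 in Dgcr8-/-. Myc intronic ratios were 0.183 and 0.379. Lef1 is the Tcf-type factor that turns Wnt signals into transcription (chr3:131110471-131224356, plus strand). Lef1 exonic reads were 166, 530.3 and 579.6 in TFC, against 139, 2.27 and 37.2 in Dicer1-/-. Lef1 in V6.5 had 152, 187 and 494, and in Dgcr8-/- 112, 61.4 and 62.4. Lef1 groups did not overlap in either comparison (ratios 0.142 and 0.285). Lef1 intronic reads were 39.6, 0 and 72.7 in TFC against 22.6, 20.8 and 0 in Dicer1-/-, and 35.5, 66.5 and 84.8 in V6.5 against 3.42, 36.7 and 19.7 in Dgcr8-/-. Lef1 intronic ratios were 0.403 and 0.331. Mixl1 is a homeobox gene of the streak (chr1:180693043-180697034, minus strand). Mixl1 exonic reads were 11.8, 75.04 and 74.8 in TFC, against 15.3, 52.2 and 7.97 in Dicer1-/-. Mixl1 stood at 25.4, 455 and 822 in V6.5, and at 23.4, 12.4 and 25.6 in Dgcr8-/-. Mixl1 groups overlapped in both comparisons (ratios 0.477 and 0.0493). Mixl1 intronic reads were 0, 0 and 0 in TFC against 0, 0 and 0 in Dicer1-/-, and 0, 30.9 and 0 in V6.5 against 0, 0 and 0 in Dgcr8-/-. Mixl1 was thus under the intronic minimum in TFC and V6.5. Mixl1 in V6.5 was low in library A and high in B and C.

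Germ cell and early embryo genes were 10 members: Usp26, Dppa3, Tdrd5, Tdrkh, Ddx25, Ybx2, Syce2, Ccdc36, Nlrp9b and Clgn, with median ratios of 0.263 and 0.248. Dppa3, or Stella, guards maternal methylation in the zygote and is a naive-state gene in culture (chr6:122626410-122630272, plus strand). Dppa3 exonic reads were 1222, 748 and 958 in TFC, against 343, 149.9 and 194 in Dicer1-/-. Dppa3 reached 1391, 320.2 and 749 in V6.5, with 90.5, 45.1 and 122 in Dgcr8-/-. Dppa3 groups did not overlap in either comparison (ratios 0.235 and 0.106). Dppa3 intronic reads were 26.4, 0 and 30.7 in TFC against 10.7, 0 and 0 in Dicer1-/-, and 53.3, 0 and 3.74 in V6.5 against 0, 10.3 and 6.37 in Dgcr8-/-. Dppa3 was thus under the intronic minimum in TFC and V6.5. Tdrd5, which acts in piRNA production in the male germ line, had exonic ratios of 0.272 and 0.188 and intronic ratios of 0.1301 and 0.126. Phlda2, an imprinted gene that limits placental growth (chr7:143501545-143503150, minus strand), is the second imprinted member beside Magel2. Phlda2 exonic reads were 956, 110.1 and 149.6 in TFC, against 85.6, 0 and 7.97 in Dicer1-/-. Phlda2 in V6.5 had 1099, 68.95 and 38.2, and in Dgcr8-/- 298, 1.55 and 11.2. Phlda2 groups were apart in the Dicer comparison and overlapped in the Dgcr8 comparison (ratios 0.0792 and 0.259). Phlda2 intronic reads were 1.52, 0 and 0 in TFC against 0, 0 and 0 in Dicer1-/-, and 0, 0 and 0 in V6.5 against 0, 0 and 0 in Dgcr8-/-. Phlda2 was thus under the intronic minimum in TFC and V6.5. Phlda2 was highest in library A of every group.

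Neuronal proteins and ion channels were 18 members: Gap43, Gpm6a, Dclk1, Kif1a, Syp, Syt1, Cplx2, Pacsin1, Dpysl5, Tubb4a, Kcnj3, Kcns3, Kcnd1, Kcnip3, Cacna1b, Trpa1, Fgf13 and Slitrk4. Their median ratios were 0.272 and 0.221, and 7 of 8 over the intronic minimum were at most 0.5 in introns in both comparisons. Dclk1, a microtubule-binding kinase of young neurons, had exonic ratios of 0.0917 and 0.0221 and intronic ratios of 0.279 and 0.0398. Kif1a, the motor of synaptic vesicle precursors, had 0.211 and 0.166 and 0.339 and 0.136. The sum of the neural markers Pax6, Sox1, Nes and others was 3520 to 5469 in Dicer1-/- and 2581 to 4747 in TFC. It was 3915 to 5740 in Dgcr8-/- and 3711 to 7832 in V6.5, with Nes means of 1866 and 3733. In the Dicer comparison 2 of 7 tested neural markers were lower, with a median log2 fold change of 1.49. In the Dgcr8 comparison 2 of 8 were lower, with a median of 1.59. The part of neural cells in the members' values was not tested.

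Matrix, adhesion and cytoskeleton genes were 28 members, with median ratios of 0.219 and 0.212: Col1a1, Acan, Matn3, Fbn2, Hapln4, Itih5, P4ha2, Timp2, Mmp25, Serpine2, Pcdh7, Pcdh18, Fat3, Pkp2, Crb3, Pard6a, Acta2, Actc1, Myh6, Pdlim3, Coro1a, Coro2a, Cotl1, Lcp1, Cap2, Espn, Tns2 and S100a4. Col1a1, the main chain of type I collagen (chr11:94936224-94953042, plus strand), was of low level in the Dicer comparison. Col1a1 exonic reads were 95.2, 0 and 83.4 in TFC, against 8.95, 36.4 and 15.9 in Dicer1-/-. Col1a1 stood at 1000, 1770 and 1353 in V6.5, and at 96.8, 27.97 and 19.2 in Dgcr8-/-. Col1a1 groups overlapped in the Dicer comparison and were apart in the Dgcr8 comparison (ratios 0.354 and 0.0356). Col1a1 intronic reads were 0, 0 and 0 in TFC against 0, 0 and 0 in Dicer1-/-, and 5.92, 6.19 and 11.2 in V6.5 against 0, 0 and 0 in Dgcr8-/-. Col1a1 was thus under the intronic minimum in TFC and V6.5. Acta2 encodes smooth muscle actin (chr19:34241090-34255590, minus strand). Acta2 exonic reads were 21.4, 2.501 and 129 in TFC, against 30.7, 0 and 23.9 in Dicer1-/-. Acta2 reached 1371, 4301 and 2372 in V6.5, with 275, 157 and 118 in Dgcr8-/-. Acta2 groups overlapped in the Dicer comparison and were apart in the Dgcr8 comparison (ratios 0.368 and 0.0688). Acta2 intronic reads were 0, 0 and 0 in TFC against 0, 0 and 0 in Dicer1-/-, and 41.5, 138 and 97.3 in V6.5 against 0, 0 and 0 in Dgcr8-/-. Acta2 was thus under the intronic minimum in TFC. S100a4 is a calcium-binding protein of motile cells (chr3:90603771-90606045, plus strand). S100a4 exonic reads were 0, 0 and 282 in TFC, against 8.95, 0 and 26.6 in Dicer1-/-. S100a4 in V6.5 had 0, 87.1 and 174, and in Dgcr8-/- 28.4, 0 and 0. S100a4 groups overlapped in both comparisons (ratios 0.135 and 0.119). S100a4 intronic reads were 7.11, 0 and 0 in TFC against 0, 0 and 0 in Dicer1-/-, and 0, 4.64 and 14.97 in V6.5 against 0, 0 and 0 in Dgcr8-/-. S100a4 was thus under the intronic minimum in TFC and V6.5. These 3 are also fibroblast markers. Of 12 tested fibroblast markers, 10 were lower in the Dicer comparison and 9 in the Dgcr8 comparison. Of the other fibroblast markers, Col1a2, Col3a1, Postn and Lum were at 0 in Dicer1-/- and had means of 19.8 to 54.4 reads in TFC. Tagln went the other way, with 430 in Dicer1-/- and 104 in TFC. Prrx1 was at 0 in both. In V6.5 Col1a2 had a mean of 842.5 against 6.95 in Dgcr8-/-, and Col3a1 113.9 against 5.29. Postn there had 34.4 against 0.83, Lum 17 against 0 and Prrx1 8.04 against 3.89. Tagln had 4025 in V6.5 against 482 in Dgcr8-/-, while Twist1 with 67.5 against 162 and Dcn with 26.6 against 38.2 were higher in the knockout. The part of fibroblasts in these values was not tested. Pkp2 is a plakophilin of the desmosome (chr16:16213318-16272712, plus strand). Pkp2 exonic reads were 1387, 2096 and 1835 in TFC, against 828, 904 and 765 in Dicer1-/-. Pkp2 stood at 1176, 1547 and 1930 in V6.5, and at 824, 545 and 749 in Dgcr8-/-. Pkp2 was lower in each knockout library than in any library of its wild type (ratios 0.4698 and 0.455). Pkp2 intronic reads were 251, 142 and 435 in TFC against 158, 219.6 and 141 in Dicer1-/-, and 237, 405 and 383 in V6.5 against 66.6, 101 and 155 in Dgcr8-/-. Pkp2 intronic ratios were 0.628 and 0.317.

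Immune recognition and cell death genes were 13 members: B2m, H2-K1, Cd274, Btla, Btn2a2, Vsir, Serpinb9, Slfn5, Slfn9, Spn, Casp8, Bok and Siva1. B2m, the light chain of class I antigen complexes, had ratios of 0.287 and 0.228, and H2-K1, a heavy chain of the same complexes, had 0.437 and 0.364 in exons and 0.497 and 0.38 in introns. Cd274, the ligand of the inhibitory receptor PD-1, had 0.4003 and 0.172. Membrane transporters were 20 members, among them Slc39a8, Slc39a10, Slc15a2, Slc16a10, Slc16a13, Slc4a5, Slc38a3, Slc1a3, Slc23a1, Slc9a5, Slco3a1, Slc35c2, Slc35e4, Slc24a1, Slc8a2, Atp7b, Atp6v0d1 and Mcoln1. Slc39a10, a further zinc importer, had exonic ratios of 0.406 and 0.373. Lipid metabolism held 13 members: Lpl, Elovl4, Cers4, Acsl6, Acot1, Acot2, Dgat2, Agpat5, Lss, Msmo1, Dbi, Alox15 and Pla2g1b. Lpl, which frees fatty acids from lipoproteins, had ratios of 0.134 and 0.207.

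Mitochondrial proteins were 12 members with median ratios of 0.385 and 0.414: Mrpl23, Mrpl42 and Mrpl55 of the mitochondrial ribosome, Timm9, Timm10b, Timm21 and Tomm5 of protein import, and Gcsh, Dhodh, Tk2, Prodh and Slc25a30. None of the 10 over the intronic minimum had intronic ratios of at most 0.5 in both comparisons, and 6 had neither. RNA processing, transcription machinery and translation were 17 members with medians of 0.396 and 0.428: Nip7, Cirh1a, Pabpc4, Pabpc4l, Lsm1, Lsm6, Srp9, Brf2, Snapc5, Eif1b, Eif4e3, Usb1, Srsf12, Dph3, Med9, Med10 and Med11. Metabolism of amino acids, polyamines, nucleotides and redox held 17: Odc1, Sat1, Shmt1, Fah, Hmox1, Pts, Bpgm, Car3, Car4, Gpx3, Gpx8, Sepp1, Guk1, Nme6, Dctpp1, Pdxk and Flad1. Odc1, the first enzyme of polyamine synthesis and a known target of Myc, had exonic ratios of 0.467 and 0.464 and intronic ratios of 0.901 and 0.649. DNA repair and telomere genes were 7: Lig4, Mpg, Neil2, Ercc8, Faap24, Slx1b and Acd, with medians of 0.449 and 0.482. Of these, 0 were among the members kept whichever exonic library was left out.

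**Figure D3:**
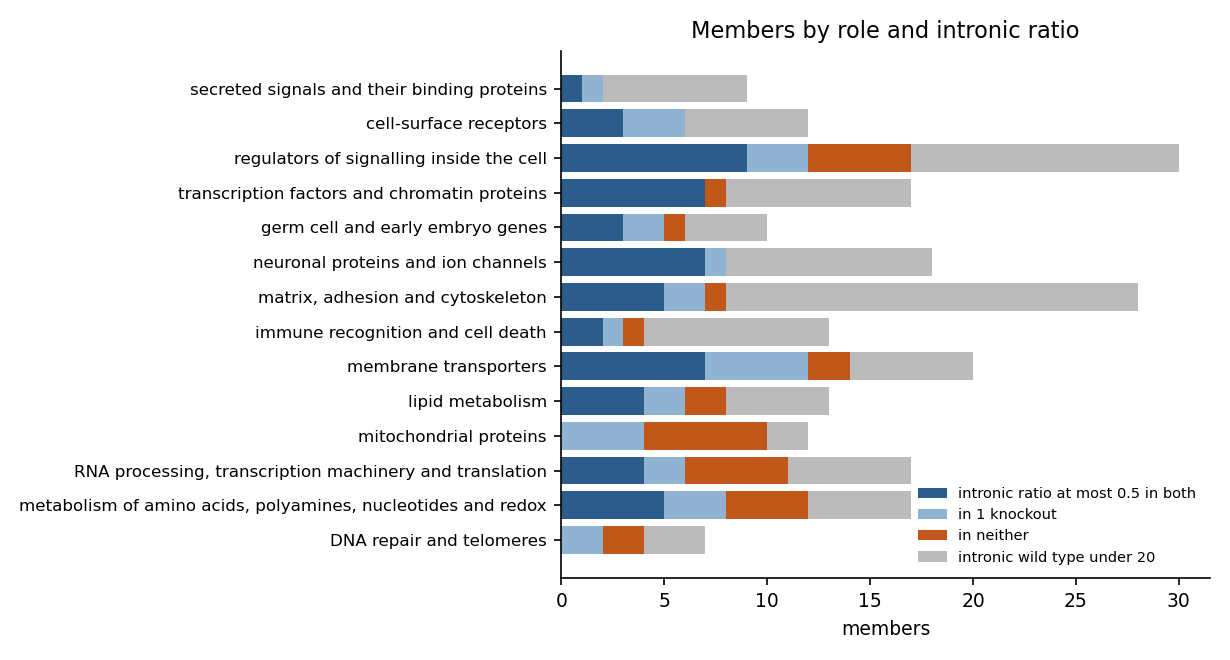
Number of members in each of 14 role groups, split by intronic ratio: dark blue at most 0.5 in both comparisons, light blue in 1 of them, orange in neither, grey with intronic wild-type means under 20. Of the 12 mitochondrial members none is dark blue and 6 are orange, while 7 of 17 transcription factors and chromatin proteins are dark blue.

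Intronic reads were lower together with exonic reads for many members. The intronic wild-type mean was at least 20 in both comparisons for 219 members, and their median intronic ratios were 0.42 and 0.409. Intronic ratios were at most 0.5 in both comparisons for 104 of them (47.5%), in the Dicer comparison alone for 26, in the Dgcr8 comparison alone for 33 and in neither for 56 (25.6%). Among 8129 other eligible genes over the same minimum, 1.82% were at most 0.5 in both and 86% in neither. Among genes lowered in exons only in the Dicer comparison the share in both was 10.5% of 333, and only in the Dgcr8 comparison 12.3% of 405. Of the 104 members, 58 stayed members whichever exonic library was left out, and 79 passed by the median of the 3 libraries. Of the 56 members in neither, 12 stayed and 31 passed. The intronic ratio lay above the exonic ratio for 149 of 219 members in the Dicer comparison and 155 in the Dgcr8 comparison, with a median log2 difference of 0.47 and 0.44. Members were chosen by low exonic ratios, while introns were not used. That choice alone can place the intronic ratio above the exonic one, so nothing is read from these differences. Across the 219 members log2 exonic and intronic ratios correlated with Pearson's r of 0.59 and 0.70 (Spearman's rho 0.52 and 0.66), over genes that share the same libraries and are not independent.

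**Figure D4:**
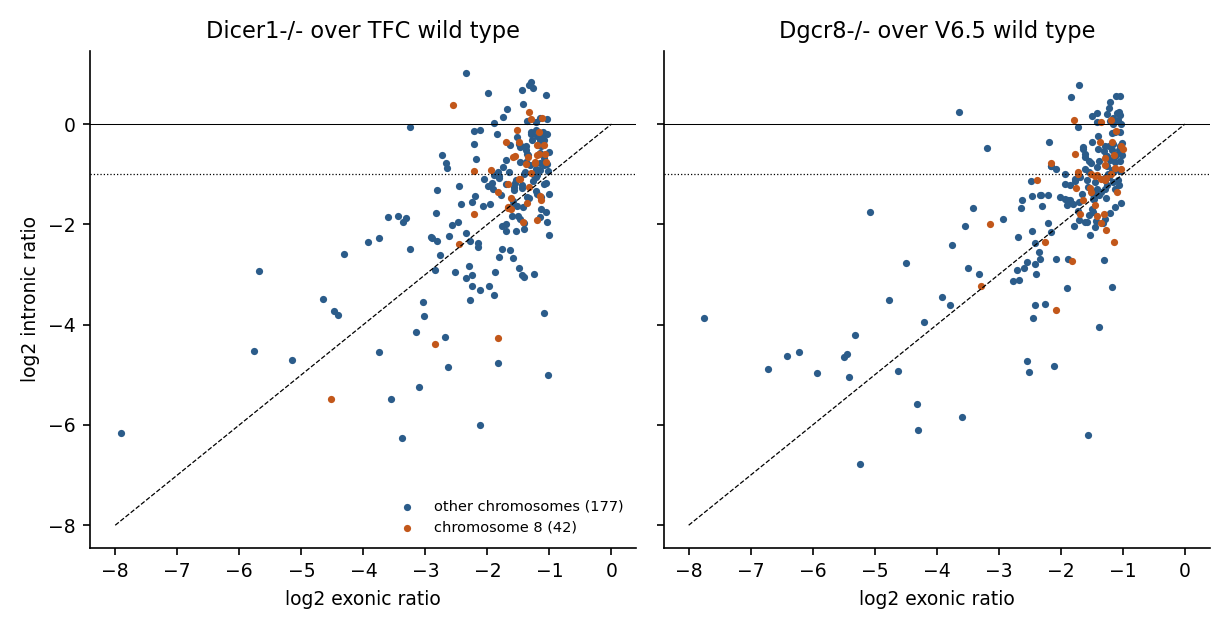
Log2 exonic ratio against log2 intronic ratio of the 219 members over the intronic minimum, Dicer on the left and Dgcr8 on the right, with chromosome 8 in orange. The dashed line marks equal ratios, the dotted line an intronic ratio of 0.5 and the full line no intronic difference. Points above the dashed line, 149 and 155 of 219, had an intronic ratio above the exonic one, a side that the choice of members by exonic ratio favours.

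By the larger of both intronic ratios the lowest members were Usp26, Plac8 and Klk8, given above, and Pcdh7, Aim1 and Matn3, while in the Dgcr8 comparison alone Car4 was lower still at 0.00915. Pcdh7 is a protocadherin with very long introns (chr5:57717967-58133230, plus strand). Pcdh7 exonic reads were 0, 0 and 242 in TFC, against 20.4, 0 and 0 in Dicer1-/-. Pcdh7 reached 25.4, 406 and 615 in V6.5, with 21.7, 0 and 0 in Dgcr8-/-. Pcdh7 groups overlapped in the Dicer comparison and were apart in the Dgcr8 comparison (ratios 0.0959 and 0.0235). Pcdh7 intronic reads were 0, 80.1 and 148 in TFC against 0, 0 and 0 in Dicer1-/-, and 23.7, 47.96 and 24.9 in V6.5 against 0, 0 and 0 in Dgcr8-/-. Pcdh7 intronic ratios were 0.01298 and 0.0301. Matn3 is a matrilin of cartilage matrix (chr12:8947929-8972028, plus strand). Matn3 exonic reads were 181, 130.1 and 0 in TFC, against 0, 0 and 23.9 in Dicer1-/-. Matn3 in V6.5 had 93.95, 50.8 and 137, and in Dgcr8-/- 0.835, 0 and 0. Matn3 groups overlapped in the Dicer comparison and were apart in the Dgcr8 comparison (ratios 0.0856 and 0.0135). Matn3 intronic reads were 139.7, 48.9 and 0 in TFC against 1.26, 0 and 0 in Dicer1-/-, and 68.1, 6.19 and 74.8 in V6.5 against 0, 0 and 3.47 in Dgcr8-/-. Matn3 intronic ratios were 0.0222 and 0.0425. Aim1 had no position in the annotation used. Aim1 exonic reads were 88.8, 91.3 and 124 in TFC, against 76.7, 6.82 and 63.7 in Dicer1-/-. Aim1 stood at 122, 933 and 663 in V6.5, and at 60.1, 174 and 55.96 in Dgcr8-/-. Aim1 groups were apart in the Dicer comparison and overlapped in the Dgcr8 comparison (ratios 0.4897 and 0.1703). Aim1 intronic reads were 8.13, 12.2 and 72.7 in TFC against 0, 0 and 0 in Dicer1-/-, and 5.92, 7.74 and 62.4 in V6.5 against 0, 0 and 0 in Dgcr8-/-. Aim1 intronic ratios were 0.0312 and 0.03796.

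Of the 219 members over the intronic minimum, 6 had intronic ratios above 1 in both comparisons, so that exonic reads were lower and intronic reads were not. Both intronic ratios were above 1 for 2257 of the 8129 other eligible genes. Wdyhv1 removes the amide from N-terminal glutamine (chr15:58141377-58158665, plus strand). Wdyhv1 exonic reads were 354, 290.1 and 255 in TFC, against 182, 87.5 and 95.6 in Dicer1-/-. Wdyhv1 reached 234, 180.5 and 209 in V6.5, with 59.2, 94.8 and 133 in Dgcr8-/-. Wdyhv1 was lower in each knockout library than in any library of its wild type (ratios 0.408 and 0.463). Wdyhv1 intronic reads were 266, 77.8 and 225 in TFC against 222, 313 and 486 in Dicer1-/-, and 169, 128 and 141 in V6.5 against 208, 255 and 188 in Dgcr8-/-. Wdyhv1 intronic ratios were 1.79 and 1.48. Slx1b is the nuclease subunit that resolves branched DNA (chr7:126689468-126695784, minus strand). Slx1b exonic reads were 741, 808 and 941 in TFC, against 363, 325 and 430.3 in Dicer1-/-. Slx1b in V6.5 had 731, 212 and 335, and in Dgcr8-/- 289, 148 and 175. Slx1b groups were apart in the Dicer comparison and overlapped in the Dgcr8 comparison (ratios 0.4497 and 0.4805). Slx1b intronic reads were 80.8, 271 and 39.1 in TFC against 104, 113 and 206 in Dicer1-/-, and 53.3, 20.1 and 47.4 in V6.5 against 29.9, 44.7 and 68.9 in Dgcr8-/-. Slx1b intronic ratios were 1.08 and 1.18. Rgs3 is a further regulator of G protein signalling (chr4:62559847-62704001, plus strand). Rgs3 exonic reads were 292, 148 and 23.01 in TFC, against 95.8, 15.9 and 29.2 in Dicer1-/-. Rgs3 stood at 135, 83.5 and 89.3 in V6.5, and at 124, 20.2 and 0 in Dgcr8-/-. Rgs3 groups overlapped in both comparisons (ratios 0.309 and 0.475). Rgs3 intronic reads were 112, 0 and 30.7 in TFC against 80.5, 34.7 and 62.1 in Dicer1-/-, and 44.4, 27.9 and 7.48 in V6.5 against 59.8, 11.5 and 12.7 in Dgcr8-/-. Rgs3 intronic ratios were 1.24 and 1.05.

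Ccdc114 helps to dock dynein arms in motile cilia (chr7:45924072-45948963, plus strand). Ccdc114 exonic reads were 125, 298 and 48.9 in TFC, against 78.6, 11.4 and 0 in Dicer1-/-. Ccdc114 reached 149.8, 41.7 and 12.8 in V6.5, with 50.9, 12.4 and 20.8 in Dgcr8-/-. Ccdc114 groups overlapped in both comparisons (ratios 0.196 and 0.4203). Ccdc114 intronic reads were 122, 0 and 8.38 in TFC against 79.9, 99.4 and 87.5 in Dicer1-/-, and 32.6, 37.1 and 14.97 in V6.5 against 58.05, 20.6 and 19.7 in Dgcr8-/-. Ccdc114 intronic ratios were 2.02 and 1.16. Siva1 is a death-domain protein of apoptosis (chr12:112644679-112649149, plus strand). Siva1 exonic reads were 1241, 42.5 and 122 in TFC, against 374, 27.3 and 114 in Dicer1-/-. Siva1 in V6.5 had 871, 186 and 104, and in Dgcr8-/- 348, 56.7 and 27.2. Siva1 groups overlapped in both comparisons (ratios 0.368 and 0.374). Siva1 intronic reads were 159, 33.4 and 83.8 in TFC against 126, 173 and 147 in Dicer1-/-, and 172, 162 and 38.7 in V6.5 against 277, 70.5 and 88 in Dgcr8-/-. Siva1 intronic ratios were 1.61 and 1.17. Prr7 is a proline-rich membrane protein of synapses (chr13:55464267-55473154, plus strand). Prr7 exonic reads were 160.5, 0 and 0 in TFC, against 75.4, 0 and 0 in Dicer1-/-. Prr7 stood at 254, 1.81 and 0 in V6.5, and at 113, 0 and 0 in Dgcr8-/-. Prr7 groups overlapped in both comparisons (ratios 0.479 and 0.447). Prr7 intronic reads were 58.9, 0 and 89.4 in TFC against 45.3, 80.9 and 95.96 in Dicer1-/-, and 88.8, 38.7 and 42.4 in V6.5 against 93.9, 25.2 and 66 in Dgcr8-/-. Prr7 intronic ratios were 1.49 and 1.09. Prr7 exonic reads thus came almost wholly from library A of each group, as most of those of Siva1 did, while Prr7 intronic reads were found in every library but B of TFC.

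For 185 members the intronic mean was under the minimum in at least 1 wild type. Of these, 16 were listed at 0 in both wild types: Rgs5, Slfn5, Maf, Magel2, 6330403K07Rik, Igfbp5, Spn, Fgfbp3, Kctd12, Stbd1, Cend1, Uchl4, Pabpc4l, Hey1, Gas1 and Cplx2. An intron length of 0 was listed for 5 members, Maf, Magel2, Kctd12, Uchl4 and Gas1, so their intronic 0 is no measurement.

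The members were unevenly spread over the genome, with 64 of 404 (15.8%) on chromosome 8, which holds 5.65% of the eligible genes. Of the eligible genes there, 10.8% were members, against 2.09% on chromosome 5 and 6.32% on the X chromosome, the lowest and highest of the others among chromosomes with members. Chromosome 8 as a whole was lower in both knockouts: the median log2 exonic ratio of its eligible genes was -0.47 in the Dicer and -0.48 in the Dgcr8 comparison, where every other chromosome but Y lay between -0.22 and 0.08. The 526 genes of chromosome 8 that are no members showed this too, with 74.1% and 77.4% of ratios below 1 against 51.6% and 49.7% on other chromosomes. Without the members, the intronic medians of chromosome 8 were -0.40 and -0.43.

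Each library was scored by the median, over non-member genes of chromosome 8, of log2(value + 1) less the gene's mean over the 6 libraries of the table, minus the same median over other chromosomes. In Dicer exons the scores were 0.376, 0.059 and 0.114 in TFC and -0.049, -0.269 and -0.241 in Dicer1-/-. In Dgcr8 exons they were 0.318, 0.192 and 0.126 in V6.5 and 0.028, -0.291 and -0.308 in Dgcr8-/-. Knockout libraries lay below wild-type libraries in all 4 tables, with mean differences of -0.37 and -0.40 in exons and -0.46 and -0.38 in introns. The exact two-sided permutation test gave p = 0.1 in each table, the smallest that 3 against 3 libraries allow, for a chromosome picked after its values were seen. On the X chromosome the differences were -0.01 and -0.13 in exons (exact p = 0.9 and 0.7), and the groups overlapped. Whether this goes with the knockouts or with the lines cannot be told apart.

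**Figure D5:**
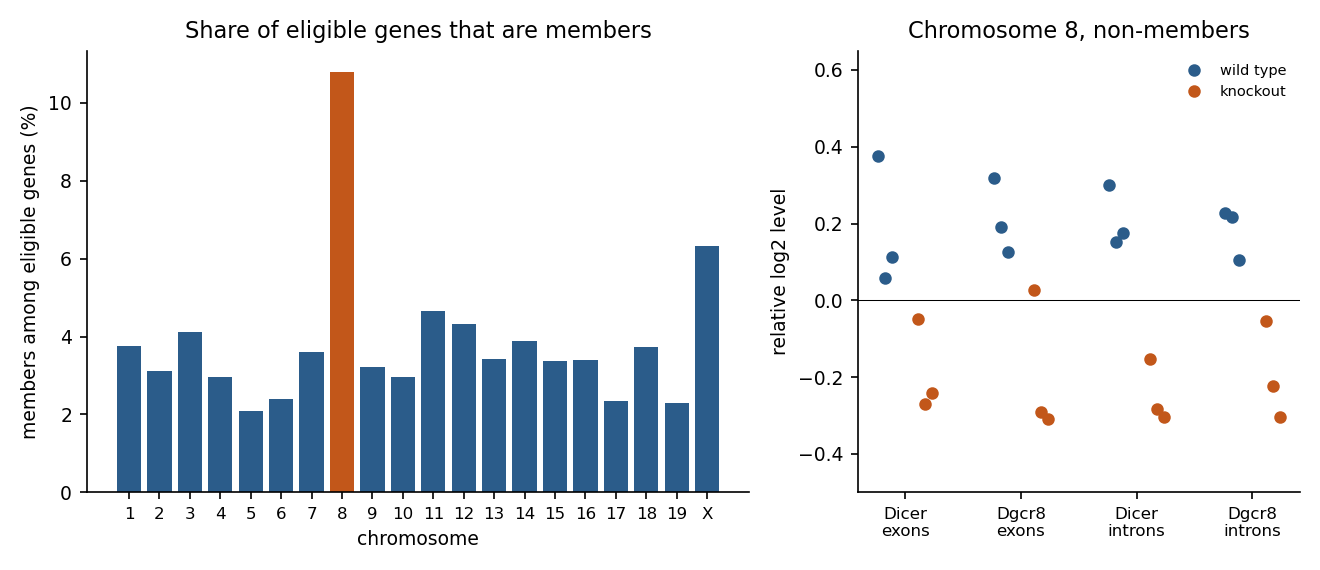
Left, percentage of the eligible genes of each chromosome that are members, 10.8% for chromosome 8 in orange. Right, relative log2 level of the non-member genes of chromosome 8 in each library (A, B and C from left to right), wild type in blue and knockout in orange. In each of the 4 tables the 3 knockout libraries lie below the 3 wild-type libraries.

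The members of chromosome 8 had median exonic ratios of 0.356 and 0.349, against 0.303 and 0.296 elsewhere, and wild-type medians of 475 and 321 reads against 197 and 193. Of the 42 over the intronic minimum, 14 had intronic ratios of at most 0.5 in both comparisons, as did 90 of 177 elsewhere. If each ratio was divided by the median ratio of its chromosome, 338 genes passed the rule, 336 of them members. Beside those named above, the members on chromosome 8 were 2810428I15Rik, Abhd8, Ankrd37, Ccdc124, Cfap20, Coprs, Csnk2a2, Dcun1d2, Fut10, Klhl26, Klhl36, Marveld3, Mfhas1, Mtss1l, Ndrg4, Necab2, Nek3, Neto2, Nr2c2ap, Ntpcr, Nutf2, Ppp1r3b, Prr36, Smim7, Stox2, Tldc1, Trappc2l, Zdhhc2 and Zmat4. Tldc1, Cotl1 and Klhl36 lie next to each other among eligible genes, within 116.9 kb from position 119760076 to 119876995. Cotl1, which binds filamentous actin, had exonic ratios of 0.315 and 0.322, Tldc1 0.418 and 0.497 and Klhl36 0.359 and 0.295. Over the genome, 51 members stood in 25 runs of neighbours among eligible genes. Among them were Slfn5 and Slfn9, Acot2 and Acot1, Fbxo44 and Fbxo2, Dgcr6 and Prodh, Guk1 and Mrpl55, and Armcx2 and Armcx5. The runs spanned from 7.64 kb to 3315 kb, and that of Armcx2 and Armcx5 943 kb. No expected count was worked out, so nothing is read from the number of runs.

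In the wild-type lines members were of lower level, and had fewer exonic reads per intronic read, than all eligible genes. Per kb of exon, the median wild-type level of members was 78.8 reads in TFC and 73.6 in V6.5, against 263 and 198 for all eligible genes. The median ratio of exonic to intronic reads per kb was 26.6 and 35.5 for members, against 42.4 and 51.0. Genes lowered only in Dicer exons were close to the members in V6.5, with 88.4 reads per kb and a ratio of 35.3, and genes lowered only in Dgcr8 exons had 95.5 reads per kb and a ratio of 38.3 in TFC. Exon lengths were alike, with medians of 2930 and 3108 bases, and introns summed to 15436 and 19557 bases.

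Genes of related pathways that are no members were read from 17 lists, written with earlier results of these data known, with the limma test over all genes. Over all genes 1.03% were called higher in Dicer exons, 0.789% in Dgcr8 exons, 0.275% in Dicer introns and 1.11% in Dgcr8 introns. In exons these 135 and 100 genes called higher also became 0 without any of the same libraries (662 to 910 and 590 to 773 at an unadjusted p under 0.05), so the exonic calls below are lost with any of them. Of Fgf and Erk feedback genes, 1 of 13 fell in Dicer exons and 0 of 13 passed in Dgcr8 exons. Spry2, an inhibitor of Fgf signalling, fell in Dicer exons (1651 against 4492, log2 fold change -1.45, SE 0.22, adjusted p = 0.0282). Of naive pluripotency genes, 1 of 21 fell in Dicer exons and 1 of 22 rose in Dgcr8 exons. These were the nuclear receptor gene Nr5a2 (1159 against 3410, log2 fold change -1.53, SE 0.27, adjusted p = 0.0399) and Prdm14 (695 against 122, log2 fold change 2.66, SE 0.48, adjusted p = 0.0492). Nanog rose in Dgcr8 introns (376 against 148, log2 fold change 1.35, SE 0.32, adjusted p = 0.0493). Of primed epiblast genes, 0 of 11 passed in Dicer exons and 1 of 11 rose in Dgcr8 exons. Otx2, a homeobox gene of the epiblast, rose there (1914 against 251, log2 fold change 3.09, SE 0.43, adjusted p = 0.0264), while the members Fgf5, Lef1 and Wnt8a of the same list are those lowered in both.

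Germline genes called in exons were Sohlh2, a factor of early germ cells, which rose in both comparisons, Rhox6, which rose in Dicer exons, and Rhox5, which fell in Dgcr8 exons. Of 19 and 20 tested, 2 rose and 0 fell in Dicer exons, and 1 rose and 1 fell in Dgcr8 exons. Sohlh2 had a log2 fold change of 3.11 in Dicer exons (SE 0.34, adjusted p = 0.00909) and 4.87 in Dgcr8 exons (SE 0.78, adjusted p = 0.0372). Of imprinted genes, 3 of 21 rose and 1 fell in Dicer exons, and 1 of 19 fell in Dgcr8 exons. Plagl1 rose in Dicer exons (4413 against 185, log2 fold change 4.68, SE 0.41, adjusted p = 0.00767), and Igf2, a growth factor, rose in Dicer exons with 2.56 and fell in Dgcr8 exons with -3.72 on the log2 scale. Of the Schlafen family, Slfn3 fell in Dicer exons (0.757 against 217, log2 fold change -7.19, SE 1.38, adjusted p = 0.048), 1 of 3 tested. Of DNA methylation genes, Dnmt3l, the cofactor of the de novo methyltransferases, fell in Dicer exons (1356 against 8052, log2 fold change -2.54, SE 0.25, adjusted p = 0.00767), 1 of 12 tested, and 0 of 12 passed in Dgcr8 exons.

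Of epithelial junction genes, Dsp rose in Dicer exons with a log2 fold change of 1.67 (adjusted p = 0.0282), and Cldn6 and Dsp fell in Dgcr8 exons with -4.52 and -2.62 (adjusted p = 0.0259 and, rounded, 0.05), 1 and 2 of 14 tested. Of genes of the Lin28 and let-7 axis 0 of 15 passed in either exon table, and Dis3l2 rose in Dgcr8 introns (2392 against 384, log2 fold change 2.69, SE 0.40, adjusted p = 0.00376). Of the Stat3 pathway, Jak1 rose in Dicer exons, 1 of 15 tested, and 0 of 15 passed in Dgcr8 exons. Zygotic activation genes of the so-called 2C-like state gave 0 calls among 6 and 5 tested. Among markers of other cell types, the calls in Dgcr8 exons were Col1a2 and Tagln of fibroblasts (2 of 9), Cdx2, Krt8 and Krt18 of trophectoderm (3 of 13), Dab2 of primitive endoderm (1 of 11) and T and Wnt3 of mesoderm (2 of 6), and they fell. In Dicer exons Col4a2 and Sparc of primitive endoderm (2 of 12) and Pou3f2 of the neural list (1 of 7) rose, and 0 of 9, 10 and 5 passed for fibroblasts, trophectoderm and mesoderm. T fell from 1443 reads in V6.5 to 0, with an adjusted p of 0.0329. The Y-linked genes Eif2s3y and Uty fell in Dgcr8 exons, 2 of 3 tested, and 0 of 5 passed in Dicer exons. In introns of the same lists Plagl1 and Peg3 rose in the Dicer comparison, Otx2 rose in the Dgcr8 comparison, and Grb10, Peg10, Cldn6, Dab2, Lamb1, T, Fgf8, Eif2s3y and Uty fell in the latter.

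Other members with no role given are named by chromosome. Chromosome 1 held Ap1s3, Crispld1, Ildr2, Jph1, Pcp4l1, Speg and St8sia4, and chromosome 2 1110008F13Rik, Aif1l, Bcas1, Bend7, Garnl3, Helz2, Lypd6, Phpt1, Ssna1, Tmem141 and Uap1l1. Chromosome 3 held Fam102b, Fam198b, Igsf10, Lamtor5, Rab25 and Trim46, and chromosome 4 Cfap74, Efhd2, Extl1, Fbxo2, Fbxo44, Glipr2, Mob3b, Nkain1, Padi2, Tmem234, Tmem246 and Trnp1. On chromosome 5 were C530008M17Rik, Hip1r, Nsg1, Nyap1, Plac8, Stbd1 and Wdr86, and on chromosome 6 3110062M04Rik, Eps8, Pradc1, Rassf4, Tmem150a and Tprkb. On chromosome 7 were Ccdc114, Cend1, Crym, Ctsc, Hpn, Klk8, Magel2, Phlda2, Prr19, Prss23, Sbsn and Tub, and on chromosome 9 Aagab, Abhd14b, Ano10, Dock3, Pigyl, Smco4 and Uchl4. Chromosome 10 had 1500009L16Rik, Chst11, Cpm, Lrrc20, Plk5, Ppp1r14c and Tcp11l2, and chromosome 11 2810408A11Rik, 6330403K07Rik, Arl5c, B4galnt2, Gdpd1, Mettl23, Mpp2, Phospho1, Rangrf, Tcn2, Tmem100, Tmem256, Txndc17, Usp43, Zfp39 and Znhit3. Chromosome 12 had Greb1, Itgb1bp1, Rnf144a, Tc2n, Tmem121, Tmem251, Tspan13 and Vrtn, chromosome 13 Gas1, Gpr137b and Prr7, and chromosome 14 Hr, Jph4, Kctd12, Mdp1, Phf7, Rnf219 and Ube2e1. On chromosome 15 lay Cthrc1, Dap, Fkbp11, Kdelr3, Mal2, Micall1, St3gal1, Them6 and Wdyhv1, and on chromosome 16 App, Ccdc116, Dgcr6, Plcxd2, Tvp23a and Ydjc. On chromosome 17 lay Fez2, Neu1, Plcl2, Stap2 and Zfp946, on chromosome 18 Jakmip2, Pstpip2, Reep2, Slmo1 and Tnfaip8, and on chromosome 19 Gcnt1, Tmem216 and Vwa2. The X chromosome held Armcx2, Armcx5, Fndc3c1, Lonrf3, Mum1l1, Prrg3, Rragb, Tmem29, Tro, Tspan7, Usp51 and Zcchc12. The members 1700094D03Rik and Aim1, had no position. All 181 members without a role, those of chromosome 8 included, had median exonic ratios of 0.325 and 0.333. Of the 101 over the intronic minimum, 47 had intronic ratios of at most 0.5 in both comparisons and 26 in neither.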

How the data were processed

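Polyadenylated RNA was sequenced from 4 groups of 3 libraries, and the files hold exonic and intronic group means of 18412 genes. The deposited values are a signal, reads divided by size factors and averaged over a group. Per the submitters' processing notes the tools were TopHat2 2.0.12 and DESeq with build mm10; how reads were counted by strand and the annotation are not given in the sources used here. As a mean of 3 whole counts, each divided by its size factor, admits few solutions, whole reads per library were solved from the means; 99.15% to 100.00% of genes per group had 1 solution, and others were left out of library values. Solved reads were even numbers in 56.8% to 80.4% of genes, so what 1 read counts is uncertain. On simulated data 100.00% of the solved genes were right. limma 3.58.1 in R 4.3.3, with a variance trend, tested log2(value + 1) of genes with a mean of at least 10 in each table, with Benjamini-Hochberg adjustment. Fold changes are on that scale and understate low genes. Exact permutation tests were two-sided. Python 3.11.15 did the rest.

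Members, roles, motifs and the 17 lists were chosen with earlier results of these data known. Members are named apart from a few that are not reported here; library values are given for the 12 with the lowest larger exonic ratio, the 6 highest and 6 lowest by intronic ratio, members on a list, and Axin2. The 5 members and 5 other genes nearest the threshold, and up to 4 called non-members per list by fold, are also named. Alternatives covered the ratio, minimum, added value, scaling, filter, variance model, test and each library. Positions are of GRCm38; 6 members were found under another symbol.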

Additional observations from a re-analysis of the deposited data

How the results depend on the processing

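The rule gave 404 genes, and 240 with a ratio of at most 0.4, 735 with at most 0.6 and 619 with a wild-type minimum of 20. With a library left out in turn it gave 373 to 521. Intronic ratios of at most 0.5 in both comparisons held for 104 members, for 52 of 122 with an intronic minimum of 50, and for 92 to 106 with a library left out. Genes called lower by limma in Dicer exons were 30, but 16 with no variance trend, 4 with limma-voom on recovered reads and 645 with a term for library set (A against B and C), and 0 to 167 with a library left out. In Dgcr8 exons they were 71, but 20 with limma-voom, 1099 with the term for library set and 0 to 192 with a library left out. In Dicer introns they were 9, but 18 with log2(value + 5), 15 with no filter, 0 with no variance trend (463 at an unadjusted p under 0.05, and 13 by limma-voom), 27 with the term for library set and 1 to 7 with a library left out. In Dgcr8 introns they were 44, but 97 with log2(value + 5), 29 with a mean of at least 50, 171 with the term for library set and 4 to 80 with a library left out. The causes were not tested. The term for library set rests on letters picked from these same values, and no label gives such a set. Leaving out chromosome 8 or library A, and scaling by chromosome, were chosen after seeing the data and gave 340, 454 and 338 genes by the rule. No paired analysis was possible because the recovered libraries carry no replicate number. Levels under the intronic minimum limit what introns show for 185 members.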
